A study of Mus musculus with 6 samples.

Results

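The 51 genes described here act in mitosis and the G2/M transition of the cell cycle. They were chosen by name, as the rows of the deposited FPKM table (54532 genes) whose symbol is on a list of cyclins, mitotic kinases, kinetochore proteins, kinesins, spindle proteins, condensins and their transcription factors, and all 51 were found. Total RNA was sequenced in 6 libraries of mouse cells, which the labels give as primary fibroblasts of the lung. Of these, 3 have the title NC and 3 are titled as a calumenin knockdown (KD). Descriptions of the same libraries call them wild type and knockout, the labels do not spell out NC, and no strain, age, sex or treatment is given in them. The series asks how calumenin, a calcium-binding protein of the secretory pathway, bears on senescence and fibrosis signalling in fibroblasts, and withdrawal from the cell cycle is one mark of senescence.

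Entry into mitosis is driven by the kinase CDK1 bound to cyclins A and B, which the CDC25 phosphatases activate. Polo-like and Aurora kinases then build the spindle, kinetochores attach chromosomes to microtubules, the checkpoint kinases hold the cell until all are attached, and the anaphase-promoting complex (APC/C) ends mitosis by marking cyclin B and securin for destruction. Most of these genes are transcribed late in the cell cycle by the MuvB complex with B-MYB and FOXM1, acting on a CHR promoter motif, and by NF-Y, which binds CCAAT boxes. In a growing culture their RNA levels follow the share of cells in G2 and M. In these bulk libraries, a change in the share of cells in those phases and a change in RNA per cell cannot be told apart.

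Depth recovered from the FPKM values was 15907164 to 18312888 reads per library, and each member had between 317 and 28585 reads in each. Calu itself had 220, 227 and 225 FPKM in NC1, NC2 and NC3, and 14.6, 12.6 and 13.1 in KD1, KD2 and KD3, so the labels of the 2 groups hold for the targeted gene. Of 13 fibroblast markers, 10 had a mean of at least 1 FPKM, among them Col1a1, Col1a2, Vim and Pdgfrb, while Lum had 0 reads in all 6 libraries, Dcn had at most 2 reads in any, and Thy1 at most 0.17 FPKM. Epithelial and endothelial markers (13 genes) were all below 1 FPKM. The mesothelial marker Msln was at 14.2 FPKM in NC and 12.4 in KD, and the smooth muscle marker Des at 6.67 and 5.69. The immune markers Cd68 and Lyz2 were at 3.71 and 2.74 and at 1.48 and 1.47, while Ptprc had at most 7 reads in any library. The other 4 smooth muscle, 3 mesothelial and 5 immune markers, Ptprc among the last, averaged below 1 FPKM. The part of cells with Msln, Des, Cd68 or Lyz2 in the results was not tested. The INK4 inhibitor genes Cdkn2a and Cdkn2b had 0 reads in every library. One KD library, KD1, stood apart from KD2 and KD3. Mitochondrial genes took 2.56% of its reads, where the range elsewhere was 1.60% to 1.97%, and its values for the 51 genes are given separately throughout. Whether the replicates were independent cultures or animals is not in the labels, and the p-values therefore reflect only sample-to-sample spread here, which may be technical.

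The mitosis and G2/M genes were expressed in all 6 libraries, and more of them were higher than lower in KD, by small amounts. The test was limma on log2(FPKM + 1), with Benjamini-Hochberg adjustment at 0.05 over the 12299 genes averaging 1 FPKM or more, a filter that all 51 members passed. Of the 51, 15 were higher in KD and 1, Dlgap5, was lower, beside 10.9% of all tested genes higher and 13.6% lower. The median log2 difference of the members was 0.14, against 0.01 over all tested genes, and single members ranged from -0.19 to 0.53. The sum of the 51 FPKM values was 115.7% of the NC mean in KD1, 109.4% in KD2 and 107.3% in KD3, where the NC libraries lay between 99.2% and 100.5%. In 27 members all 3 KD libraries lay above all 3 NC libraries, beside 21.3% of all tested genes, and in 3 members (Dlgap5, Racgap1 and Ncapd2) all lay below, beside 22.9%.

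The counts of calls depended on which library was left out. Without KD1, 24 members were higher and 5 lower, beside 20.9% and 21.6% of all genes tested then. The 15 higher members and Dlgap5 were all among them. Leaving out another library gave 4 higher members without NC1 or NC3, 5 without NC2 or KD2 and 13 without KD3, with 0 lower in each. At these settings 5.1%, 5.29%, 4.78%, 4.81% and 8.12% of all tested genes were higher, in that order, and 7.43%, 7.9%, 7.3%, 8.04% and 11.9% lower. Without NC1, NC3, NC2 or KD2, 3 of the 15 (Nusap1, Kif18b and Mki67) passed in each case. A pseudocount of 0.1 or 5 gave 15 higher and 1 lower, beside 11.0% and 10.8% of all genes higher. With no filter on low values 10 were higher and 1 lower, beside 3.51% and 5.37% of the genes then tested, and with the replicate number as a block 12 were higher and 0 lower, beside 8.54% and 11.2%. With array weights, which weigh libraries by their spread, 12 were higher and 1 lower, beside 11.8% and 14.0%. Ube2c, Ndc80, Prc1 and Dlgap5 then missed the threshold (limma adjusted p between 0.0563 and 0.0679), and the lower gene was Racgap1 (0.0404).

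**Figure D1:**
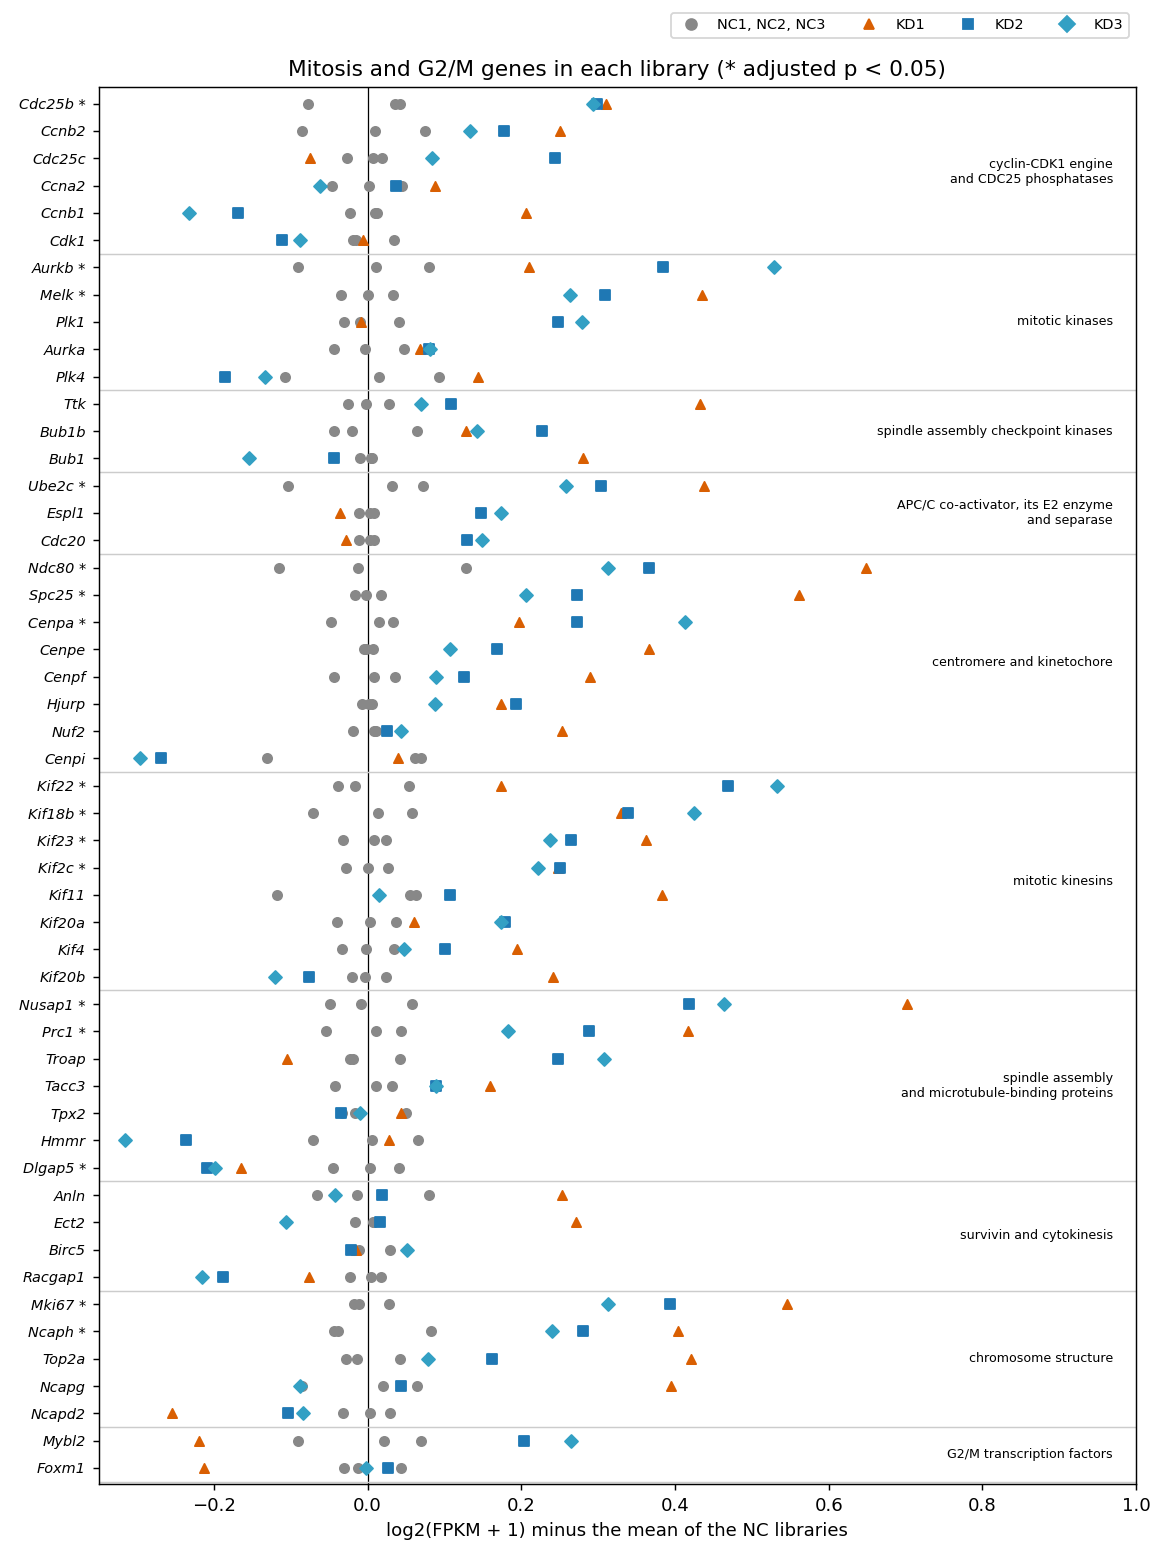
Each of the 51 genes in each library, as log2(FPKM + 1) minus the mean of the 3 NC libraries (horizontal axis), ordered by role and by difference. Grey circles are the NC libraries, the triangle is KD1, the square KD2 and the diamond KD3, and an asterisk marks the 16 members past the limma threshold. Nusap1 is farthest to the right, and KD1 lies apart from KD2 and KD3 for many genes, on either side.

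The promoters of these genes carry the letters of the cell-cycle motifs more often than promoters in general. RefSeq promoters (GRCm38.p6, 250 bases before to 50 after the start) were found for 44 of the 51 genes, 46 promoters in all. The CHR motif was searched as TTTGAA or TTCGAA and the NF-Y motif as CCAAT, each on both strands, and they overlapped in 0 of the member promoters. A CHR match was present in 73.9% of member promoters and in 19.2% of all 32851 RefSeq promoters. That comparison set was not limited to genes expressed in these libraries. Within the stretch from 100 bases before the start to 50 after it, the shares were 69.6% and 8.59%. CCAAT was present in 73.9% against 37.4%, at least 2 copies of it in 45.7% against 11.7%, and both kinds of motif in 65.2% against 7.52%. Among promoters of members that were higher in KD, 80.0% (12 of 15) had a CHR match, and among the other members 71.0% (22 of 31), so the motif was common in both. CCAAT went the other way, with 66.7% (10 of 15) and 77.4% (24 of 31). Both kinds of motif were in 66.7% and 64.5%. Of the higher members, Nusap1, Melk and Ncaph had neither motif, and Kif2c and Ndc80 had a CHR match without CCAAT. Their promoters are not among those printed below, and the RefSeq start used for Kif2c lay 3867 bases from the deposited gene start. A match of letters is a description and does not show that a factor binds there.

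**Figure D2:**
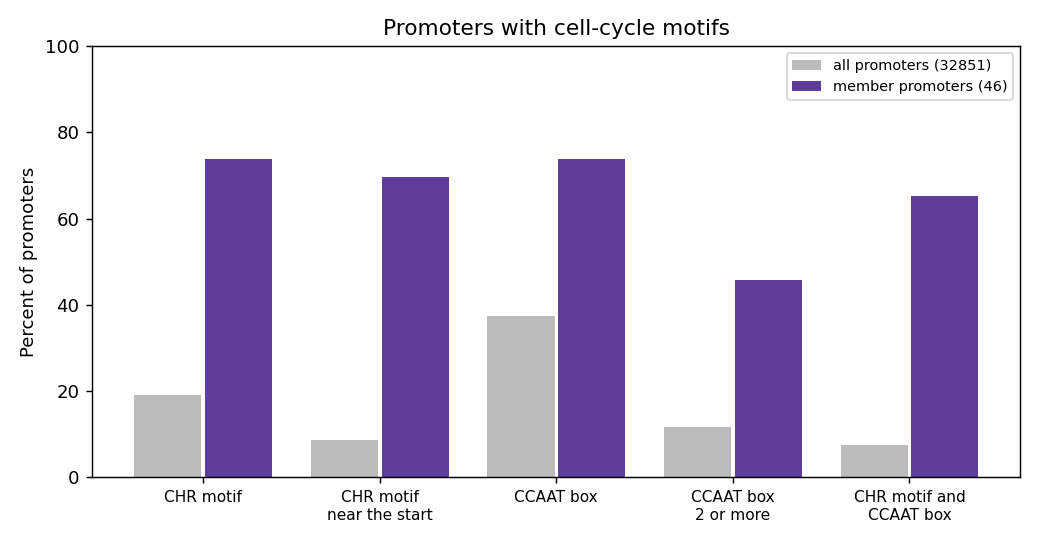
Percent of promoters that hold each motif (vertical axis), for all 32851 RefSeq promoters (grey) and the 46 promoters of mitosis and G2/M genes (purple). Near the start means from 100 bases before it to 50 after it. Each purple bar is above its grey neighbour, with 65.2% against 7.52% for both kinds of motif together.

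Promoter sequences are printed for the members with the smallest adjusted p that have a motif match and a CCAAT within 150 bases before the start, because they show the motif pairs that the share counts. They are the 150 bases before the RefSeq start, 5′ to 3′ on the gene's strand, with CHR and CCAAT letters in capitals (ATTGG is CCAAT and TTCAAA is TTTGAA on the other strand).
Kif18b, chr11:102925125-102925274, minus strand: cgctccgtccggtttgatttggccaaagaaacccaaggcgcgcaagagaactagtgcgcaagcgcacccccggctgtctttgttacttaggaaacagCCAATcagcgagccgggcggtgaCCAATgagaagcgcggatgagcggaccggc
Mki67, chr7:135716380-135716529, minus strand: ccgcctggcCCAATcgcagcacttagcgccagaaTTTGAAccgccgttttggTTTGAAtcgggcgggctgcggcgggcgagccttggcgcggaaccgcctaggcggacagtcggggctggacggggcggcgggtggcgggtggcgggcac
Cdc25b, chr2:131186798-131186947, plus strand: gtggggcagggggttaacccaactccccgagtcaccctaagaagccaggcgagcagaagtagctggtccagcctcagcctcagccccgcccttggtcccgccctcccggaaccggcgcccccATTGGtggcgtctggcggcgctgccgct
Kif23, chr9:61946800-61946949, minus strand: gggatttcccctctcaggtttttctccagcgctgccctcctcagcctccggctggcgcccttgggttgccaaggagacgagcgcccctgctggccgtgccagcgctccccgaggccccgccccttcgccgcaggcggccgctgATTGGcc
Ube2c, chr2:164769779-164769928, plus strand: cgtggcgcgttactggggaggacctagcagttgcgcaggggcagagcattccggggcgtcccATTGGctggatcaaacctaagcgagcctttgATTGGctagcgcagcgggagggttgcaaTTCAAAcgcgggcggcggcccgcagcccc
Cenpa, chr5:30666736-30666885, plus strand: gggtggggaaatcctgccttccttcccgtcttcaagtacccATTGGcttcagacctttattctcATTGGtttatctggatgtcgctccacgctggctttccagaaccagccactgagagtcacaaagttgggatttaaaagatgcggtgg

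In Ube2c the order is CCAAT at -88 and -57 and CHR at -29, counted from the start, and Mki67 has CHR at -116 and -98. In the other 4 the CHR match lies just after the start, at position 4 in Kif18b, 8 in Cdc25b, 3 in Kif23 and 17 in Cenpa. These sites are printed with 10 bases on either side and the CHR in capitals.
Kif18b site: gaccggctagTTTGAAcgcgccgcgc
Cdc25b site: gctgttatttTTCGAAtatataagga
Kif23 site: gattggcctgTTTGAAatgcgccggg
Cenpa site: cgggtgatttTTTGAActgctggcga
The CCAAT nearest the start in these 4 lies at -30 in Kif18b, -28 in Cdc25b, -7 in Kif23 and -86 in Cenpa.

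Among the genes of the CDK1 engine, 1 of 6 was called, the phosphatase gene Cdc25b. This count and those of the role groups below stand beside 10.9% of all tested genes higher and 13.6% lower. No test compared the role groups with that share. Cdc25b, whose product activates cyclin-CDK1 at the onset of mitosis, had 35.4, 32.6 and 35.5 FPKM in NC1, NC2 and NC3, and 43.0, 42.6 and 42.5 in KD1, KD2 and KD3. Those KD libraries were close together and all above NC. The mean rose 1.24-fold from 34.5 ± 1.64 to 42.7 ± 0.252 FPKM (SD, n = 3), a log2 difference of 0.30 (SE 0.06, limma adjusted p = 0.0102), which without NC2 had an adjusted p of 0.0554. Cdk1, the mitotic kinase itself, had 27.3, 28.3 and 27.3 FPKM in NC and 27.5, 25.5 and 25.9 in KD (log2 difference -0.07, adjusted p = 0.399), so the groups overlapped. Tested genes of chromosome 10, where Cdk1 lies, had a median log2 difference of -0.19. Over 17 alternative fits the difference of Cdk1 lay between -0.10 and 0.14, and it passed in 0 of them.

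Ccnb1, which encodes cyclin B1, split the KD libraries. It had 61.6, 61.5 and 60.1 FPKM in NC, 70.6 in KD1, 54.2 in KD2 and 51.8 in KD3, so KD1 was the highest and the other KD libraries the lowest of the 6. With all libraries the log2 difference was -0.06 (limma adjusted p = 0.718), and without KD1 it was -0.20 (adjusted p = 0.00906). Cyclin B2 behaved otherwise: Ccnb2 was above every NC value in all KD libraries (66.9 ± 3.77 against 76.2 ± 3.17 FPKM, SD, n = 3) but missed the threshold (limma adjusted p = 0.0761). Ccna2, the cyclin A2 gene, averaged 60.3 FPKM in NC against 61.2 in KD (limma adjusted p = 0.828). Cdc25c, the other phosphatase of this group, was the lowest of the 51 by mean level, with 10.2, 10.4 and 10.5 FPKM in NC and 9.80, 12.5 and 11.1 in KD (log2 difference 0.08, adjusted p = 0.519).

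Of 5 mitotic kinases, Aurkb and Melk rose. Aurkb encodes Aurora B, the kinase of the chromosomal passenger complex that corrects faulty microtubule attachments. It had 28.7, 25.4 and 27.3 FPKM in NC and 31.5, 35.7 and 39.5 in KD, with KD1 the lowest of the KD libraries but above all NC libraries. The 1.31-fold rise gave a log2 difference of 0.37 (SE 0.09, limma adjusted p = 0.0292), and the call ended without NC1, NC2, NC3, KD2 or KD3 (adjusted p between 0.0576 and 0.11). Melk, a kinase gene with high expression in dividing cells, had 24.1, 25.3 and 24.7 FPKM in NC and 33.8, 30.9 and 29.9 in KD, a 1.27-fold rise (log2 difference 0.34, SE 0.06, limma adjusted p = 0.0112) that missed the threshold without NC1 or NC3 (0.0506 and 0.0577).

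Plk1, the main polo-like kinase gene, was at the NC level in KD1 only. It had 51.4, 50.7 and 53.3 FPKM in NC, 51.5 in KD1, 61.7 in KD2 and 63.1 in KD3. Its log2 difference was 0.17 with all libraries (limma adjusted p = 0.185) and 0.26 without KD1 (adjusted p = 0.00389). Aurka, whose product matures centrosomes, averaged 42.0 ± 1.37 FPKM in NC against 44.3 ± 0.213 in KD (SD, n = 3, limma adjusted p = 0.309). Plk4, the kinase of centriole duplication, averaged 16.8 FPKM in NC and had 18.6, 14.6 and 15.2 in KD1, KD2 and KD3 (adjusted p = 0.714).

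None of the 3 checkpoint kinases passed with all 6 libraries, and their KD values differed in order. Ttk, which encodes the checkpoint kinase MPS1, had 11.1, 10.7 and 10.9 FPKM in NC and 15.0, 11.8 and 11.5 in KD, so most of its difference lay in KD1 (limma adjusted p = 0.193 with all libraries, 0.149 without KD1). Bub1b, the BUBR1 gene, had 21.3, 23.0 and 21.7 FPKM in NC and 24.1, 25.9 and 24.4 in KD. The groups did not overlap, and the adjusted p was 0.0835 with all libraries and 0.0335 without KD1. Bub1 had 26.03 FPKM in NC and 31.8, 25.2 and 23.3 in KD1, KD2 and KD3 (adjusted p = 0.88).

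Ube2c was the 1 gene of 3 called in the APC/C group, which also holds the co-activator gene Cdc20 and the separase gene Espl1. Ube2c encodes the ubiquitin-conjugating enzyme that works with the APC/C. It had 61.2, 59.5 and 54.0 FPKM in NC and 79.1, 72.0 and 69.8 in KD, and all KD libraries were above NC. The 1.26-fold rise had a log2 difference of 0.33 (SE 0.07, limma adjusted p = 0.0199), and the call ended without NC1, NC2, NC3 or KD2 (0.0516 to 0.0763).

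Cdc20 and Espl1 shared the pattern of Plk1. Cdc20 had 73.3, 73.5 and 72.5 FPKM in NC, 71.6 in KD1, and 80.03 and 81.1 in KD2 and KD3. Espl1 had 29.6, 29.2 and 29.5 FPKM in NC, 28.7 in KD1, and 32.7 and 33.3 in the other KD libraries. Neither passed limma with all libraries (adjusted p = 0.375 for Cdc20 and 0.354 for Espl1), and both passed without KD1 (0.0183 and 0.0143).

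Kinetochore and centromere genes had 3 rises among 8 members, with Ndc80 and Spc25 belonging to the same microtubule-binding complex. Ndc80 had 16.5, 18.2 and 15.2 FPKM in NC and 26.6, 21.7 and 20.9 in KD, a 1.38-fold rise (log2 difference 0.44, SE 0.11, limma adjusted p = 0.0274). Spc25 had 15.0, 15.4 and 15.2 FPKM in NC and 22.9, 18.6 and 17.7 in KD, a 1.30-fold rise (log2 difference 0.35, SE 0.10, adjusted p = 0.0429). In both, KD1 was the highest library and KD2 and KD3 were also above all NC values. Cenpa, the gene for the histone H3 variant that marks centromeres, had 22.6, 23.7 and 23.97 FPKM in NC and 27.0, 28.5 and 31.5 in KD, with KD1 lowest of the KD libraries (1.24-fold, log2 difference 0.29, SE 0.07, adjusted p = 0.0254). Tested genes of chromosome 17, where Ndc80 lies, had a median log2 difference of 0.17, and with chromosome medians removed Ndc80 was at 0.28 (limma adjusted p = 0.153). All 3 calls ended without NC1, NC2, NC3 or KD2 (limma adjusted p between 0.05004 and 0.0955 for Ndc80, 0.0861 and 0.13 for Spc25, and 0.0743 and 0.103 for Cenpa).

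The third subunit of that complex on the list, Nuf2, did not pass (13.4 FPKM in NC and 14.5 in KD, limma adjusted p = 0.336). Hjurp, whose product loads the centromeric histone, had 34.7, 35.1 and 34.95 FPKM in NC and 39.5, 40.1 and 37.2 in KD, and Cenpe, a kinetochore motor gene, averaged 26.8 FPKM in NC against 31.4 in KD. Both were above NC in every KD library and passed without KD1 (0.0462 for Hjurp and 0.032 for Cenpe) but not with it (0.0803 and 0.0866). Cenpf, a large kinetochore protein gene, also had KD above NC in every library (15.1 and 17.1 FPKM, adjusted p = 0.127). Cenpi, a gene of the constitutive centromere network, went the other way: it had 13.8, 13.7 and 11.9 FPKM in NC, 13.5 in KD1, 10.7 in KD2 and 10.5 in KD3, with a limma adjusted p of 0.283 with all libraries and 0.0263, for a fall, without KD1.

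Mitotic kinesins had the largest count of rises among the role groups, 4 of 8, beside 10.9% of all tested genes. All 8 had a positive log2 difference, as did 6325 of the 12299 tested genes, but Kif20b, at 0.02 with all libraries, was at -0.10 without KD1. These motors move chromosomes, slide spindle microtubules or organise the midzone. Kif18b, a plus-end kinesin of spindle microtubules, had 14.9, 15.9 and 16.4 FPKM in NC and 19.97, 20.1 and 21.4 in KD. The KD libraries were all above NC, and the 1.31-fold rise (log2 difference 0.36, SE 0.06, limma adjusted p = 0.00725) passed whichever library was left out. Kif22, the chromosome-arm kinesin, had 12.7, 12.5 and 13.4 FPKM in NC, 14.6 in KD1, 18.2 in KD2 and 19.04 in KD3, so that the rise in KD1 was smaller. Its log2 difference was 0.39 (SE 0.10, adjusted p = 0.0321), and the call ended without any one library other than KD1 (0.0741 to 0.113).

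Kif23, the motor of the centralspindlin complex, had 12.3, 12.7 and 12.8 FPKM in NC and 16.5, 15.4 and 15.0 in KD (log2 difference 0.29, limma adjusted p = 0.0144). Kif2c, a microtubule-depolymerising kinesin of the centromere, had 18.3, 18.6 and 17.9 FPKM in NC and 21.9, 21.9 and 21.5 in KD (log2 difference 0.24, adjusted p = 0.0154). For both, the KD libraries were tight and above NC, and the call ended without NC1, NC2, NC3 or KD2 (0.0541 to 0.0708 for Kif23 and 0.0633 to 0.0771 for Kif2c). Of the other 4, Kif20a had 22.6 and 25.0 FPKM and passed without KD1 (limma adjusted p = 0.0178, against 0.132 with it). Kif4, Kif11 and Kif20b had adjusted p of 0.209, 0.296 and 0.927, and KD1 was the highest library in each.

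Spindle assembly genes held both the largest rise and the single fall. Nusap1, which encodes a microtubule-bundling protein of the spindle, had 13.4, 14.1 and 13.0 FPKM in NC and 22.6, 18.4 and 18.99 in KD. It rose 1.48-fold, a log2 difference of 0.53 (SE 0.09, limma adjusted p = 0.00677), and stayed past the threshold whichever library was left out. Its gene (chromosome 2, 119618298 to 119651244, plus strand, mm10) overlaps Oip5 on the other strand, and the counting strand is not given in the sources used here. Prc1, a midzone crosslinker gene, had 26.2, 28.1 and 27.4 FPKM in NC and 36.7, 33.4 and 31.0 in KD, a 1.24-fold rise (log2 difference 0.30, SE 0.07, adjusted p = 0.0291) that missed the threshold without NC1, NC2, NC3 or KD2 (0.0819 to 0.113). Cdc25b, Prc1 and Kif22 also overlap a gene of at least 1 FPKM on the other strand, as do 8 members that did not pass.

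Dlgap5, a gene for a kinetochore-fibre protein of the spindle, had 14.2, 14.7 and 15.1 FPKM in NC and 13.0, 12.6 and 12.7 in KD. All KD libraries lay below NC, and the log2 difference was -0.19 (SE 0.05, limma adjusted p = 0.0425). Tested genes of chromosome 14, where it lies, had a median difference of -0.19 as well, and with chromosome medians removed Dlgap5 was at 0.0038 (adjusted p = 0.97). The call also ended without NC1, NC2, NC3, KD2 or KD3 (0.0876 to 0.159). Hmmr, whose product binds hyaluronan and spindle microtubules, had 19.6, 20.5 and 18.6 FPKM in NC, 19.95 in KD1, 16.5 in KD2 and 15.5 in KD3, with a limma adjusted p of 0.238 with all libraries and 0.0117, for a fall, without KD1. Troap, a spindle-associated gene, had 21.3 FPKM in NC, 19.7 in KD1, 25.5 in KD2 and 26.6 in KD3, and its adjusted p went from 0.363 to 0.00477, for a rise, without KD1. Tpx2, the activator of Aurora A on the spindle, had 67.2 FPKM in both groups (adjusted p = 0.997), and Tacc3 had 37.2 and 40.3 FPKM (0.164).

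The 4 genes grouped as survivin and cytokinesis did not pass with all 6 libraries, while Kif23, Prc1 and Aurkb, which also act in cytokinesis, are described with the kinesins, the spindle genes and the kinases. Racgap1, the partner of Kif23 in centralspindlin, had 85.7, 84.0 and 86.4 FPKM in NC and 80.9, 74.8 and 73.4 in KD. All KD libraries were below NC, and the log2 difference of -0.16 (limma adjusted p = 0.0855) passed without KD1, at -0.20 (adjusted p = 0.00636). Tested genes of chromosome 15, where Racgap1 lies, had a median log2 difference of -0.08. With the GC and length trend removed Racgap1 was at -0.09 (limma adjusted p = 0.105), and it passed in 2 of 17 alternative fits. Its level made Racgap1 the third highest of the 51, after Top2a and Mki67. Birc5, the survivin gene of the passenger complex, had 35.3 ± 0.64 and 35.4 ± 1.02 FPKM (SD, n = 3, limma adjusted p = 0.955), although its partner Aurkb rose. Anln and Ect2, a cortical scaffold and the RhoA exchange factor of the cleavage furrow, had adjusted p of 0.568 and 0.688, with KD1 the highest library in both.

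Of 5 chromosome structure genes, Mki67 and the condensin I subunit gene Ncaph rose. Mki67, which coats mitotic chromosomes and marks cycling cells, had 104, 107 and 104 FPKM in NC and 154, 138 and 131 in KD. It rose 1.34-fold (log2 difference 0.42, SE 0.07, limma adjusted p = 0.00754), with the lowest KD library above the highest NC library, and passed whichever library was left out. Ncaph had 17.9, 19.6 and 17.99 FPKM in NC and 24.8, 22.7 and 22.0 in KD (log2 difference 0.31, SE 0.07, adjusted p = 0.0198), and missed the threshold without NC1, NC3 or KD2 (0.065 to 0.0861).

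The other 2 condensin I genes on the list did not pass with all 6 libraries, and their differences were not tested against that of Ncaph. Ncapg had 17.0 FPKM in NC and 22.7, 17.6 and 15.9 in KD1, KD2 and KD3 (log2 difference 0.12, limma adjusted p = 0.534), and was higher with the GC and length trend removed (0.16, adjusted p = 0.0225). Ncapd2 had 45.9, 47.0 and 47.9 FPKM in NC and 39.2, 43.6 and 44.2 in KD (log2 difference -0.15, adjusted p = 0.139). All KD libraries were below NC for Ncapd2, which lies on chromosome 6, where the median difference of tested genes was -0.22, and with chromosome medians removed its log2 difference was 0.08 (limma adjusted p = 0.437). Top2a, the topoisomerase that untangles sister chromatids, was the highest of the 51, with 118, 124 and 119 FPKM in NC and 162, 135 and 127 in KD. Its groups did not overlap, but the spread in KD was wide (121 ± 3.14 against 141 ± 18.04 FPKM, SD, n = 3), and neither the fit with all libraries (limma adjusted p = 0.131) nor that without KD1 (0.0701) called it.

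Neither transcription factor of the set passed. Foxm1 had 46.3, 44.5 and 43.9 FPKM in NC, 38.6 in KD1, 45.8 in KD2 and 44.8 in KD3 (log2 difference -0.06, limma adjusted p = 0.587, and 0.814 without KD1). It also lies on chromosome 6, and with chromosome medians removed its log2 difference was 0.16 (adjusted p = 0.194). Mybl2, which encodes B-MYB, had 20.5, 18.2 and 19.8 FPKM in NC, 16.6 in KD1, 22.6 in KD2 and 23.6 in KD3, so KD1 was the lowest of all 6 libraries and the other KD libraries the highest. Its adjusted p was 0.682 with all libraries and 0.0242, at a log2 difference of 0.23, without KD1.

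**Figure D3:**
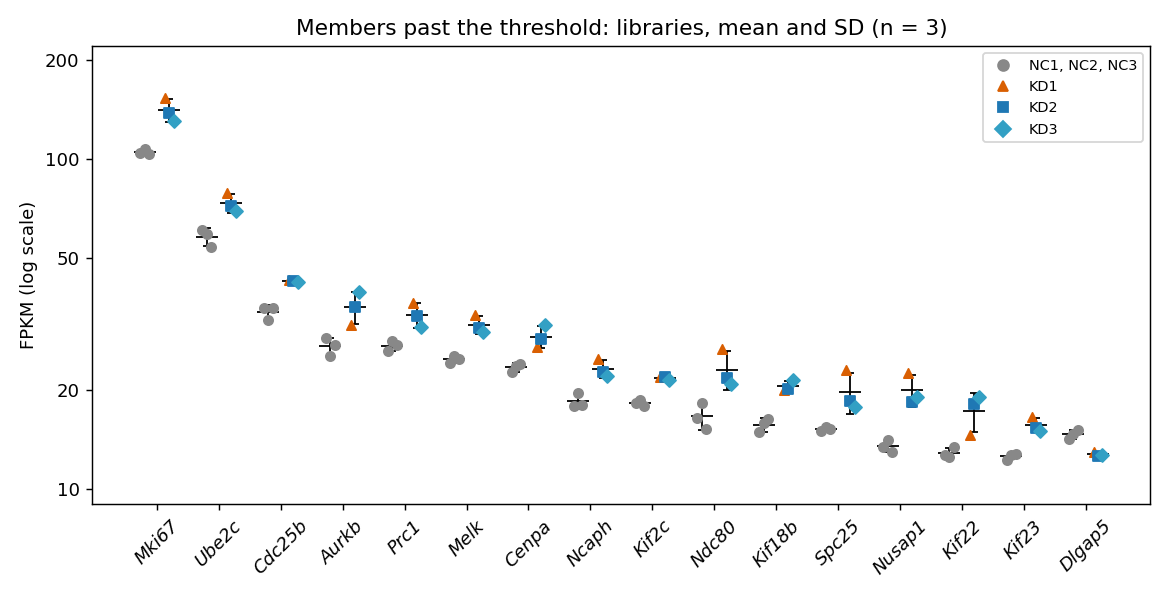
FPKM on a log axis for the 16 members past the limma threshold, ordered by mean level. Points are libraries (grey circles NC, triangle KD1, square KD2, diamond KD3), and the bar with whiskers is the mean and SD of 3 libraries. The 15 genes that rose have all KD points above all NC points, and Dlgap5, at the right, has them below.

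The difference between KD1 and the other KD libraries followed GC content among the members, and so, less closely, did the difference of each from NC. KD1 was the highest KD library in 33 members (64.7%), against 42.3% of all tested genes, and the lowest in 15 (29.4%), against 43.8%. The 33 had a median transcript GC content of 43.4% and the 15 had 54.0%. Across the 51 members Spearman's rho between GC content and the log2 difference of KD1 from the mean of KD2 and KD3 was -0.85, and across 12282 tested genes it was -0.66. Among the members rho was -0.46 for KD1 minus NC and 0.41 for the mean of KD2 and KD3 minus NC, so the fit without KD1 holds a GC trend as well. Genes in a library share its preparation, so these are descriptions. Of the 9 members that passed as higher without KD1 but not with it, Plk1, Troap, Cdc20, Espl1 and Mybl2 had GC contents of 55.6% to 57.9%, and Bub1b, Hjurp, Kif20a and Cenpe 42.9% to 50.4%. The 4 that passed as lower without KD1 but not with it (Ccnb1, Hmmr, Cenpi and Racgap1) had 41.4% to 46.3%. What set KD1 apart was not tested.

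With a GC and length trend removed from each library, 28 members were higher and 2 lower, beside 19.4% and 18.0% of all genes tested that way. The 28 held 14 of the 15 higher members, all but Ube2c (limma adjusted p = 0.101), and 14 more, among them Top2a (log2 difference 0.29, adjusted p = 0.00313), Cenpe (0.29, adjusted p = 0.00118), Cenpf (0.24, adjusted p = 0.00432) and Ttk (0.29, adjusted p = 0.00877). The 2 lower members were Dlgap5 (-0.15, adjusted p = 0.0305) and Ncapd2 (-0.19, adjusted p = 0.00583). Of the members higher without KD1 but not with it, Plk1, Bub1b, Hjurp, Kif20a and Cenpe were among the 28. Troap, Cdc20, Espl1 and Mybl2 were not (0.08, 0.02, 0.02 and 0.02, limma adjusted p from 0.228 to 0.88). Ccnb1, Hmmr, Cenpi and Racgap1, lower without KD1, did not pass either (0.03, -0.09, -0.10 and -0.09, limma adjusted p from 0.105 to 0.799). With chromosome medians removed, 15 were higher, beside 9.65% of all, and 0 lower, beside 11.0%, with Hjurp, Cenpf and Nuf2 in place of Ndc80, Prc1 and Spc25 (limma adjusted p = 0.153, 0.141 and 0.0696 for the last 3).

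The wider spread of the KD group held for the members too. The coefficient of variation over 3 libraries had a median of 8.32% in KD and 2.74% in NC among the 51, and 11.1% and 5.33% over all tested genes. In KD1 alone 36 members were above all NC libraries and 9 below, in KD2 35 and 12, and in KD3 34 and 13. Over all tested genes the shares above and below were 38.9% and 40.2% in KD1, 39.9% and 39.3% in KD2, and 41.0% and 39.8% in KD3. The median log2 difference of the members from the NC mean was 0.21 in KD1, 0.15 in KD2 and 0.09 in KD3.

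**Figure D4:**
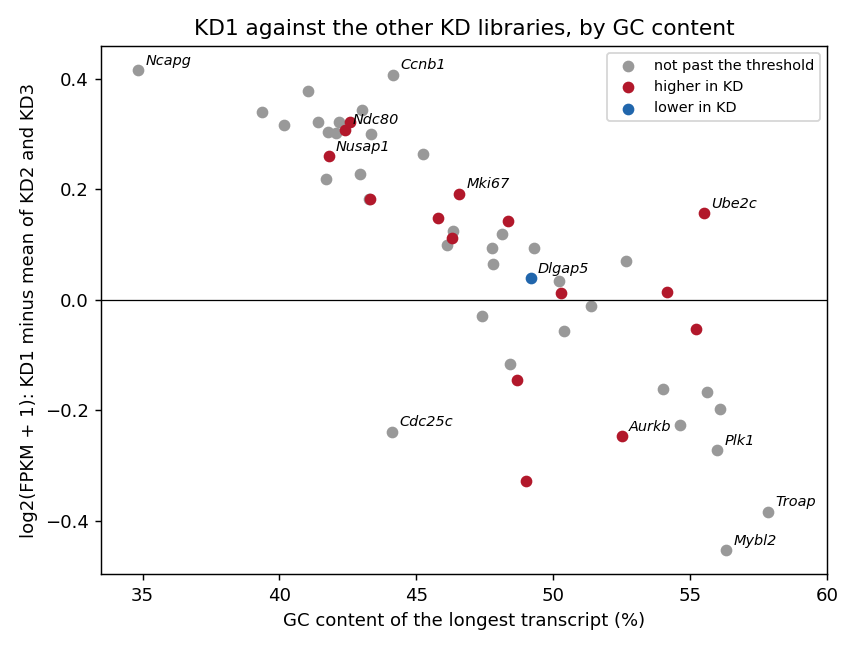
Each point is 1 of the 51 genes. The horizontal axis is the GC content of its longest transcript in percent, and the vertical axis is log2(FPKM + 1) in KD1 minus the mean of KD2 and KD3, with members past the threshold in red (higher in KD) or blue (lower). Points fall from upper left to lower right (rho -0.85), with Ncapg and Ccnb1 at the top and Troap and Mybl2 at the bottom.

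Other mitosis genes, from a list of 76 with no member in common, were counted in the same way. Of these 12 were higher and 2 lower, beside 10.9% and 13.6% of all tested genes, with a median log2 difference of 0.13. Without KD1 23 were higher and 7 lower, beside 20.9% and 21.6%. Kifc1, the minus-end spindle kinesin, had 10.6, 10.7 and 11.9 FPKM in NC and 15.0, 21.1 and 24.5 in KD, a 1.83-fold rise (log2 difference 0.79, SE 0.16, limma adjusted p = 0.0161). Kifc1 lies on chromosome 17, where tested genes had a median log2 difference of 0.17. Pimreg rose from 19.4 to 27.5 FPKM (log2 difference 0.48, adjusted p = 0.0196), the fourth NDC80 complex subunit Spc24 from 12.9 to 17.5 (0.41, adjusted p = 0.0180), and the spindle gene Ckap2 from 31.0 to 41.7 (0.40, adjusted p = 0.0321). The lower genes were the kinetochore gene Zwint (48.9 to 38.5 FPKM) and the securin gene Pttg1 (38.8 to 33.1 FPKM), named after their values were seen. The list had 0, 0, 1 and 0 higher genes without NC1, NC2, NC3 or KD2, and 0 lower in each, and 13 and 1 without KD3.

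The machinery around the members is set beside the same shares of all tested genes, 10.9% higher and 13.6% lower. Of 15 APC/C subunit and activator genes, Cdc16 (36.8 to 46.5 FPKM, log2 difference 0.33, limma adjusted p = 0.0116) and Anapc11 (20.5 to 24.6 FPKM, 0.25, adjusted p = 0.0399) rose and 0 fell, and without KD1 6 were higher and 1 lower, beside 20.9% and 21.6% of all genes tested then. Of 14 MuvB, DREAM and NF-Y genes, the NF-Y subunit gene Nfya rose from 7.79 to 10.4 FPKM (0.38, adjusted p = 0.00495) and the p130 pocket protein gene Rbl2 from 4.74 to 6.16 FPKM (0.32, adjusted p = 0.0312), and 0 fell, against 3 higher and 3 lower without KD1. Of 37 G1/S and DNA replication genes, 3 rose and 6 fell, and without KD1 10 were higher and 9 lower. No test compared the lists. Cdc7, the kinase gene of origin firing, rose from 14.4 to 22.0 FPKM (0.58, adjusted p = 0.00300) and Uhrf1 from 83.5 to 104 FPKM (0.31, adjusted p = 0.0437), while the helicase subunit genes Mcm2 (40.9 to 32.5 FPKM, -0.33, adjusted p = 0.0186) and Mcm3 (69.4 to 55.3 FPKM, -0.33, adjusted p = 0.0288) fell. Tested genes had median log2 differences of -0.22 on chromosome 6, where Mcm2 lies, and -0.15 on chromosome 1, where Mcm3 lies. The median was 0.17 on chromosome 17, which holds Uhrf1 and Nfya, and 0.03 on chromosome 5, which holds Cdc7. Of 7 CDK inhibitor genes 4 were tested, of which 2 rose and 0 fell, and without KD1 2 were higher and 1 lower. Cdkn2c rose from 36.3 to 57.4 FPKM (0.64, limma adjusted p = 0.012) and Cdkn2d from 22.0 to 30.6 FPKM (0.45, adjusted p = 0.00944). Cdkn1a had 10.1 and 10.6 FPKM (adjusted p = 0.459), and Cdkn1b had 18.2 and 16.7 FPKM (-0.12, adjusted p = 0.310).

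**Figure D5:**
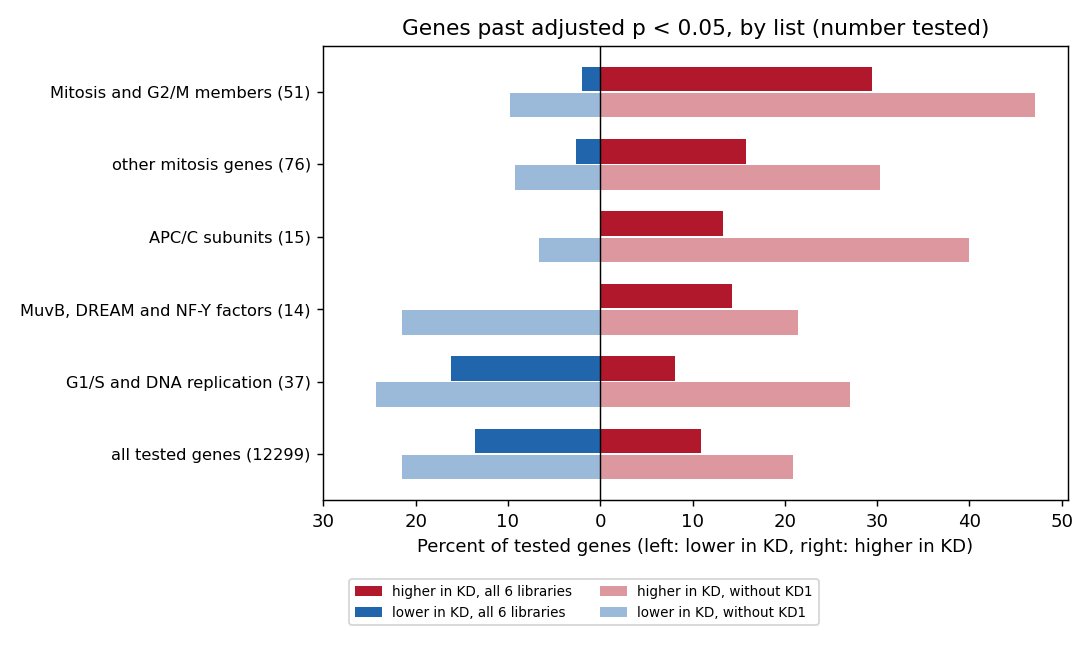
Percent of tested genes past a limma adjusted p of 0.05 in each list, with bars to the right for genes higher in KD and to the left for genes lower in KD. Dark bars are from all 6 libraries and pale bars from the fit without KD1, and the number tested is in brackets. For the 51 members 15 were higher and 1 lower with all libraries, and 24 and 5 without KD1.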

How the data were processed

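The authors deposited FPKM values (reads scaled by gene length and library size) for 54532 genes in 6 libraries, with gene positions and, in another column of the deposited table, gene length. Reads were aligned with HISAT2 2.0.5 per the labels' protocols, to mm10 per the submitters' processing notes. How reads were counted, with which strand setting and annotation, is not given in the sources used here. FPKM times length gave whole reads for 100.0% of values (tolerance 0.01). Limma 3.58.1 in R 4.3.3 was fitted on log2(FPKM + 1) with group as the model term and an intensity trend, for genes averaging 1 FPKM or more. The members, lists and alternatives were chosen with earlier results of these data known. Values by library were given for members that passed with all libraries or fell without KD1, the 3 highest and 3 lowest by level, and Mki67, Cdk1, Ccnb1, Foxm1 and Mybl2, and further members were chosen after their values were seen. Up to 4 called genes per other list were named by absolute difference. GC content came from the longest GENCODE M21 transcript (99.86% of tested genes). In 10 draws of simulated reads for KD against NC (12178 to 12200 genes), limma recovered 2.0% to 16.0% of genes changed 1.25-fold, 55.1% to 83.7% of those changed 1.5-fold and 91.3% to 98.0% of those changed 2-fold. Voom recovered 22.4% to 46.9% at 1.25-fold, near the size of most called member differences. Few genes were changed in these draws, both groups had the same spread, and KD1 had no GC trend of its own. The data differ in each of these, so the rates do not give the share of true changes found here. Promoter starts lay within 100 bases of the deposited gene start for 41 of 46. Python 3.11.15 with pandas 2.3.3 made the summaries, and matplotlib 3.10.9 the figures.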

Additional observations from a re-analysis of the deposited data

How the results depend on the processing

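Of 17 alternatives, pseudocounts of 0.1 or 5, a 5 FPKM filter, median-of-ratios scaling and voom on recovered reads left the 16 member calls on their side of the threshold. Without a filter 10 members were higher in KD, as Ndc80, Prc1, Aurkb, Kif22 and Spc25 missed the threshold (limma adjusted p between 0.0555 and 0.0934), and array weights gave 12 higher and 1 lower. Members lower numbered 0 with equal totals, the replicate block or chromosome medians removed, where Dlgap5 turned to 0.0038, and 2 with the GC and length trend removed, which gave 28 higher. Other mitosis genes higher numbered 6 without a filter and 36 with that trend removed. Other mitosis genes lower numbered 1 with equal totals, the replicate block or chromosome medians removed, and 3 with array weights. All tested genes numbered 2383 higher with the trend removed. Leaving out 1 library gave 4 to 24 members higher and 0 to 5 lower, 0 to 23 other mitosis genes higher and 0 to 7 lower, and 588 to 2571 genes higher and 898 to 2658 lower in all. The deviations of same-numbered libraries were weakly correlated (r of 0.079, -0.043 and 0.15). KD1 correlated no better with NC1 than with NC2 (0.079 and 0.082), while KD3 correlated more with NC3 (0.15) than with NC1 or NC2 (-0.091 and -0.065). The replicate block gave 12 members higher and 0 lower. The calls of Aurkb, Prc1, Spc25 and Dlgap5 were lost under it (limma adjusted p = 0.0541, 0.0618, 0.0611 and 0.0987). A planned edgeR test was not run because the deposited values are FPKM. The smallest read count of a member was 317 in a library.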
